A study of Arabidopsis thaliana with 30 samples.

Results

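Late embryogenesis abundant (LEA) proteins, dehydrins and cold-regulated genes were followed across 30 RNA-seq libraries of dark-grown Arabidopsis thaliana. The group holds 53 loci chosen by identifier from a list of dehydrins, RD29, COR15 and KIN genes and the other LEA classes, out of 33602 genes listed in each file, and all 53 identifiers were found. By class these are 10 dehydrins, 2 RD29 genes, 2 COR15 genes, 2 KIN genes, 3 LEA_1 genes, 15 LEA_4 genes, 2 LEA_5 genes, 3 LEA_2 genes, 4 LEA_3 genes, 2 PvLEA18 genes, 2 AtM genes and 6 seed maturation protein (SMP) genes. Of the 53, 45 had enough counts to be tested, and the other 8 (UNE15, AT2G18340, AT2G03740, M10, ATECP31, AT5G27980, AT5G53260 and AT5G53270) are given as levels alone.

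The genotypes were the wild type Col-0 (written Col-O in the labels) and aba2-3, a mutant of the gene ABA2, whose product is a short-chain dehydrogenase that acts late in the synthesis of abscisic acid (ABA), on xanthoxin. Seeds of both were kept for 2 days at 4 °C, given 1 day of light and grown for 4 days in darkness, so seedlings were 5 days old. Both genotypes were then placed for 2 h in liquid medium with IAA at 10 µM (indole-3-acetic acid, an auxin) or with ethanol as the mock treatment, and Col-0 was also placed in 10 µM ABA. Seedlings were handled under green light, cut at the root-shoot junction and frozen, which gave 10 groups of 3 libraries: roots and shoots of Col-0 mock, Col-0 IAA, Col-0 ABA, aba2-3 mock and aba2-3 IAA. Nothing in the labels states that replicates came from separate cultures, so p-values measure the spread between these samples. These are whole organs, so fewer cells of a type and less RNA per cell cannot be told apart.

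LEA proteins are small, very hydrophilic and largely unfolded proteins that accumulate in maturing seeds and in vegetative tissue that loses water, where they protect other proteins and membranes. Dehydrins are the LEA class with the lysine-rich K-segment, and RD29, COR15 and KIN are the classical reporters of cold, drought and ABA. ABA acts through bZIP factors of the ABF/AREB and ABI5 kind, which bind the ABA-responsive element with its ACGTG core, while cold and drought act through CBF and DREB2 factors, which bind the dehydration-responsive element with its CCGAC core.

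Because both elements are defined by sequence, the 250 bases before each deposited gene start were read from TAIR10.1. The windows of 4 members of 3 classes that rose strongly with ABA and of 2 abundant dehydrins are shown, picked with their values and windows known among members whose RefSeq start is not upstream of the deposited one, 5′ to 3′ on the strand of the gene, with every ACGTG and CCGAC on either strand in capitals. They lie at chr3:5310989-5311238 (AT3G15670, minus strand), chr1:11774234-11774483 (AtLEA4-1, plus), chr5:2090431-2090680 (LEA4-5, minus), chr2:17712331-17712580 (COR15A, minus), chr1:7089607-7089856 (ERD10, minus) and chr1:28587932-28588181 (ERD14, minus).
AT3G15670: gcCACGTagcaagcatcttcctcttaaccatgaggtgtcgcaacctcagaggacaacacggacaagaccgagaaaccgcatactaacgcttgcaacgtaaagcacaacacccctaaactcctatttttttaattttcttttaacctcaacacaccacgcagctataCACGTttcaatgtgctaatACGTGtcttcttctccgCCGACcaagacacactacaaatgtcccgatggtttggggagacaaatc
AtLEA4-1: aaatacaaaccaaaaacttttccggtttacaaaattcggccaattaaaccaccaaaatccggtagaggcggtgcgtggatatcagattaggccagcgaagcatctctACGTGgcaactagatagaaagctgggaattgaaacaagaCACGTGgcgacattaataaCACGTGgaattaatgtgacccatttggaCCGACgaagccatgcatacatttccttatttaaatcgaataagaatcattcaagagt
LEA4-5: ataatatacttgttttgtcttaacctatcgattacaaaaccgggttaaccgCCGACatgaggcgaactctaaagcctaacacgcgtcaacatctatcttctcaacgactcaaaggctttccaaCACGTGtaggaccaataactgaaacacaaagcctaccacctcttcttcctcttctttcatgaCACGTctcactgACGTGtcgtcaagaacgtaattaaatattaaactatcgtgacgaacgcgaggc
COR15A: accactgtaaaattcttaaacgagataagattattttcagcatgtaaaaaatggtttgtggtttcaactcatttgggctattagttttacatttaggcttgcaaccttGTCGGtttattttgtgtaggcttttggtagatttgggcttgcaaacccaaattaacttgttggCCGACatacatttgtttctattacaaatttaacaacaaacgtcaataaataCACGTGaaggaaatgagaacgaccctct
ERD10: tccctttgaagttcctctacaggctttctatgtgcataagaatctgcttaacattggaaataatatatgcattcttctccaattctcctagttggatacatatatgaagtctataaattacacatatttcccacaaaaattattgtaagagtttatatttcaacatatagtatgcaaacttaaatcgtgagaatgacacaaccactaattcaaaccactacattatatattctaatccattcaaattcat
ERD14: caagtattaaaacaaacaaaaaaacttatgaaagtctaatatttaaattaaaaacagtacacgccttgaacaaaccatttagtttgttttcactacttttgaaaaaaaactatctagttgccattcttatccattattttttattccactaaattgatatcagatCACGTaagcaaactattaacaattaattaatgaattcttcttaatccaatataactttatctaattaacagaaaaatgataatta

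ACGTG was present in 40 of the 53 windows (75.5%), against 23.1% of 33322 windows of all listed genes. CCGAC was present in 25 (47.2%), against 13.1%. The longer ACGTGGC, which contains ACGTG, was present in 15 (28.3%), against 3.7%. Both strands were searched, and the palindrome CACGTG counts as a match on each. The ERD10 window held neither core, and the ERD14 window held ACGTG once. They do not stand for the abundant members: of the 13 above 10 CPM in every library, 8 windows held ACGTG and 8 held CCGAC (61.5% each), and those of LTI30 and LTI78 each held ACGTG once and CCGAC 3 times. These matches are letters in a window and are not binding sites.

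Libraries held between 3871038 counts (aba2-3 IAA shoots, replicate 3) and 99.3 M counts (mega, Col-0 mock shoots, replicate 2), and the next lowest held 11.8 M. The summed level of 10 photosynthesis genes was 22600 to 83900 CPM (counts per M counts) in shoot libraries. In root libraries it was 187 to 6700 CPM, highest in replicate 2 of ABA roots (6700 CPM). Whether shoot RNA was carried over at the cut was not tested. Of 10 listed root markers, 6 were called higher in Col-0 mock roots than in shoots, 1 lower and 3 neither (edgeR, adjusted p under 0.05). Over all tested genes 24.3% were higher and 25.6% lower. The root-hair gene EXPA7 stood at 17.4 to 36.2 CPM in roots and at most 1.81 CPM in shoots. PYK10, also on the list, was higher in Col-0 mock shoots (6780 to 10400 CPM) than in Col-0 mock roots (2750 to 4110 CPM). The other 9 summed to 925 to 1100 CPM in Col-0 mock roots and 402 to 604 CPM in Col-0 mock shoots.

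In mock-treated Col-0 a few members made up nearly the whole signal. The 53 genes summed to 1.57% of the TMM-scaled library size in roots and 0.756% in shoots. Of those sums, 9 members held 96.4% and 92.0%. These percentages, here and below, come from TMM-scaled CPM and are not shares of the raw counts. With ABA the sum was 3.16% in roots and 2.06% in shoots, the members at or above 100 CPM numbered 19 in roots and 15 in shoots, beside 11 with mock, and the members under 1 CPM numbered 14 and 17, beside 27 and 28 with mock. In aba2-3 the mock sums were 1.46% in roots and 0.718% in shoots, and 33 members were under 1 CPM in mock shoots. In every library 13 members stayed over 10 CPM: ERD10, ERD14, COR47, LTI30, AT1G54410, LTI78, KIN2, LEA4-5, LEA14, AT2G44060, AT2G46140, SAG21 and AT2G23120.

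**Figure D1:**
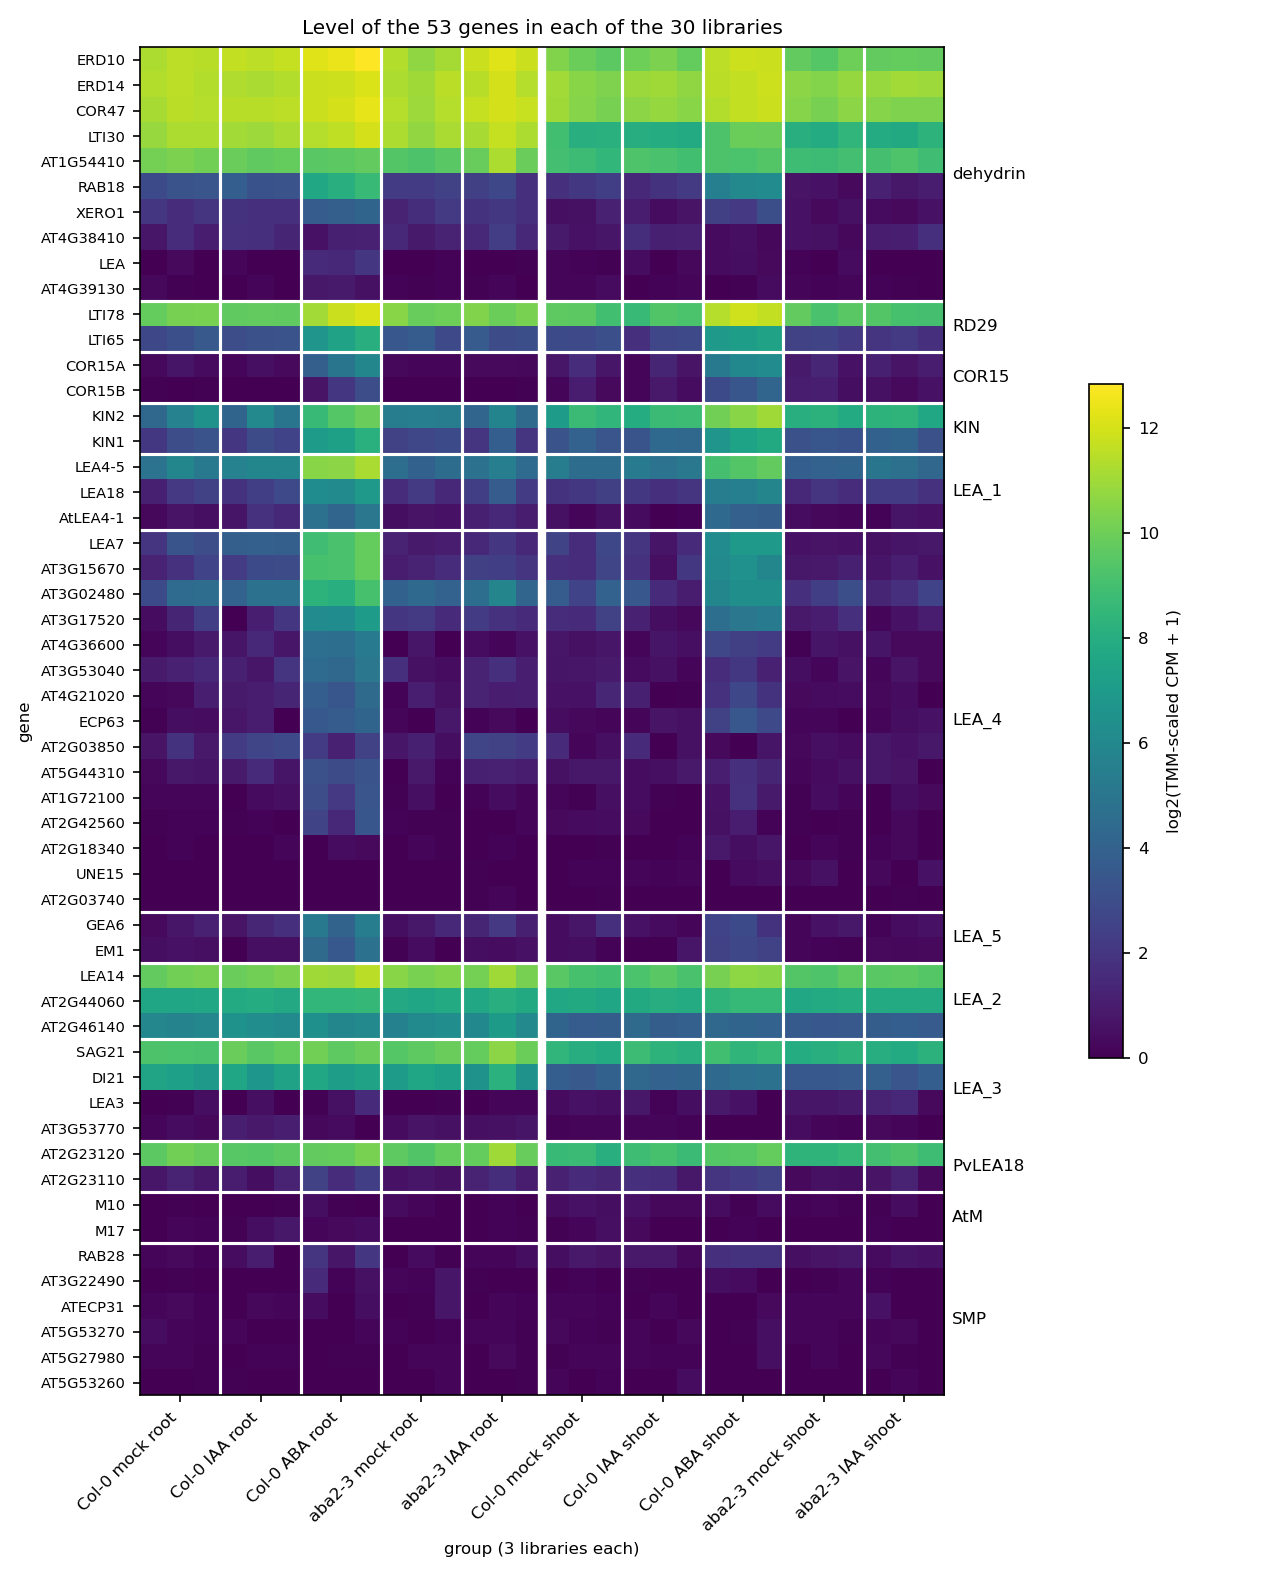
Heat map of log2(TMM-scaled CPM + 1) for 53 genes (rows, by class) in 30 libraries (columns, roots left of the wide white line and shoots right of it). The ABA columns stand out in most classes, a band of dehydrins, LEA14, SAG21 and AT2G23120 is high in every column, and the SMP and AtM rows are near 0.

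Per length, the most abundant members in mock roots were dehydrins. LTI30, a basic dehydrin that binds membranes, led at 2862 ± 447.3 RPKM (reads per kilobase of exon per M counts, mean ± SD, n = 3), followed by the acidic dehydrins ERD14 at 2446 ± 185.8, COR47 at 2174 ± 272.7 and ERD10 at 1790 ± 200.8 RPKM. LTI30 and ERD14, and ERD14 and COR47, differed by less than the larger SD of the pair. In mock shoots the order was ERD14 at 1457 ± 363.8, COR47 at 1272 ± 360.3 and LEA14 at 818.1 ± 191.6 RPKM, with LTI30 at 448.4 ± 159.6 RPKM. In ABA roots LEA4-5 reached 2122 ± 562.4 RPKM from 47.22 ± 17.5 RPKM in mock roots. In ABA shoots KIN2 was highest, at 3228 ± 992.1 RPKM, ahead of ERD14 at 2886 ± 334.6 RPKM by less than its own spread.

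**Figure D2:**
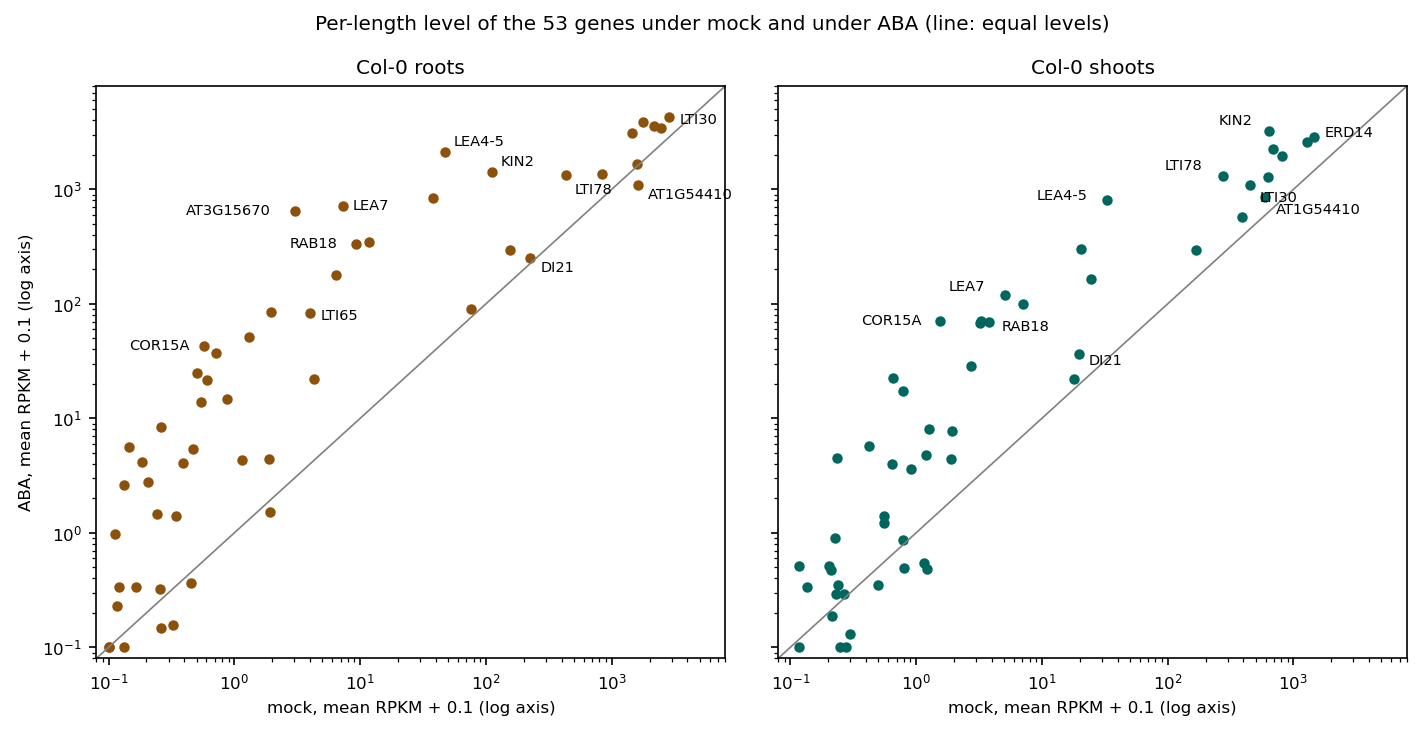
Mean RPKM of each member with ABA (vertical) against mock (horizontal) in Col-0 roots and shoots, on log axes with a small constant added, and a line of equal levels. Members that are low with mock lie far above the line, and the dehydrins at the upper right lie close to it.

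ABA raised members of nearly every class. In Col-0 roots 34 of the 53 were called higher and 0 lower (edgeR quasi-likelihood test, Benjamini-Hochberg adjusted p under 0.05), where 15.7% of all 22156 tested genes were called in either direction, 8.31% higher and 7.4% lower. In shoots 26 were called higher and 1 lower, where 9.65% of tested genes were called and 4.98% higher. The same 23 members were higher in both organs, 11 were called in roots but not in shoots, and ERD14, AT2G23120 and LTI30 were called in shoots but not in roots. The remaining 16 comprise the 8 untested loci and LEA3, AT1G54410, AT2G03850, M17, AT2G46140, AT3G53770, DI21 and AT4G38410. The median log2 fold change over the 45 tested members was 3.84 in roots and 2.06 in shoots, beside -0.03 and -0.07 over all tested genes, and the filter on low counts favours members that ABA raised.

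**Figure D3:**
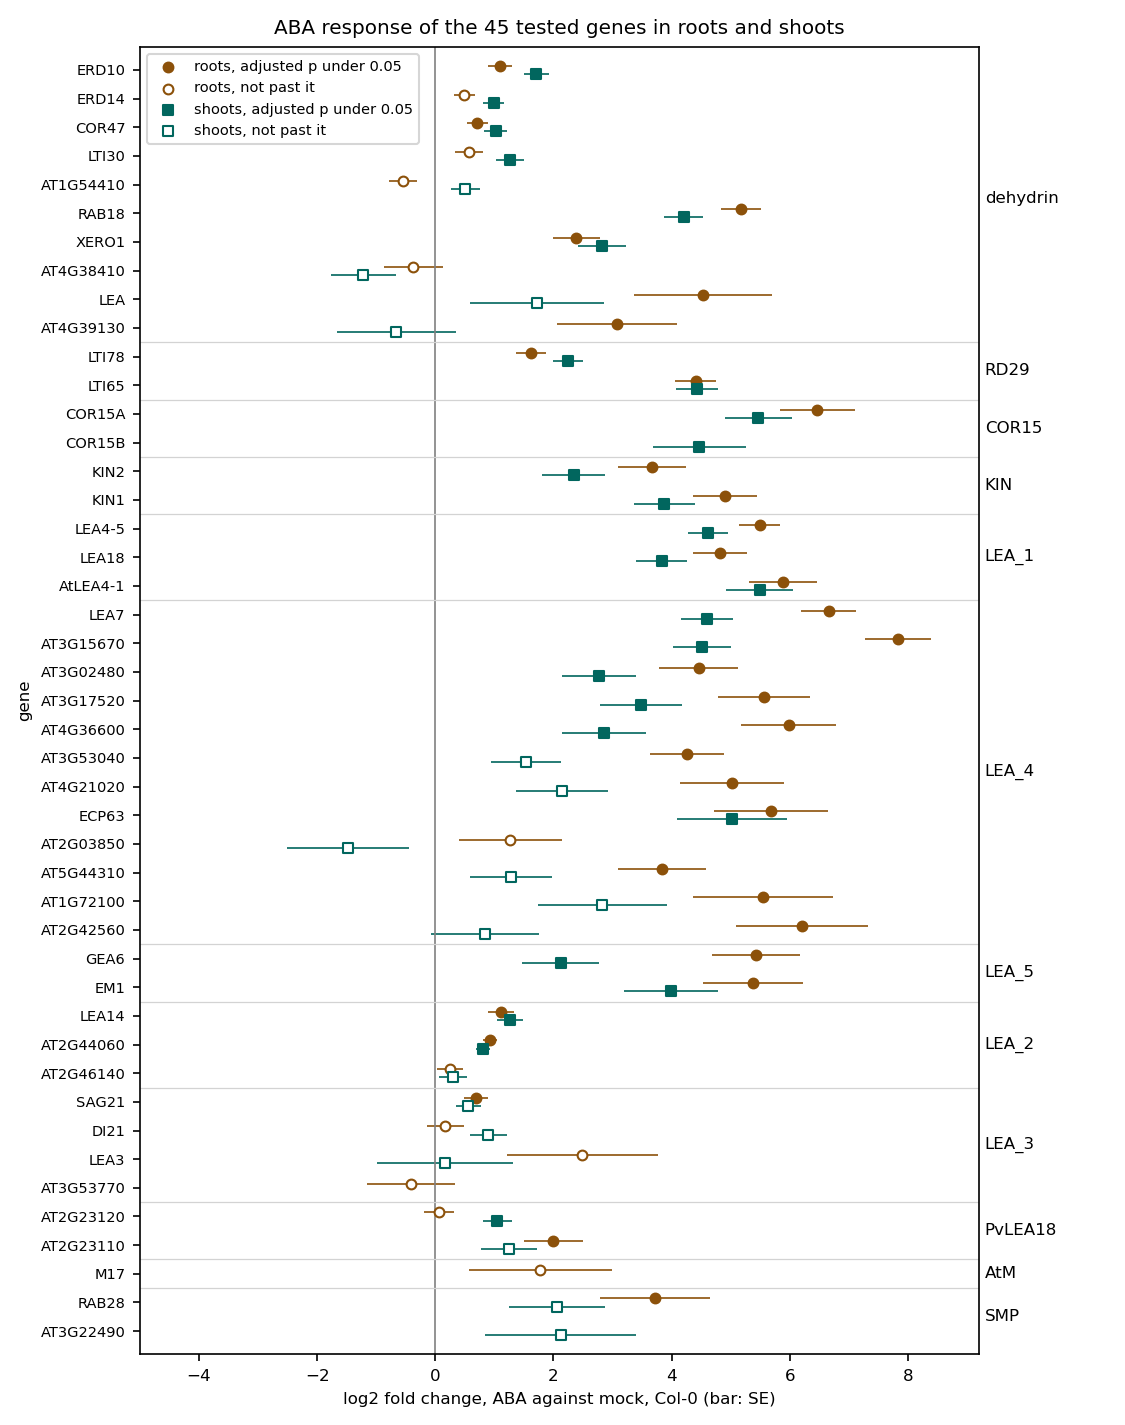
Log2 fold change with ABA against mock for the tested members in Col-0 roots (brown circles) and shoots (green squares), with SE bars, filled where the adjusted p is under 0.05. Values run up to 7.83 (AT3G15670 in roots), and 4 points whose group held 3 or fewer counts are not drawn.

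Of the 10 dehydrins, 6 were called higher in roots and 6 in shoots. RAB18, a glycine-rich dehydrin widely used as an ABA reporter, read 6.42, 8.72 and 9.27 CPM in the mock roots and 203, 266 and 415 CPM in the ABA roots. In shoots it read 2.45, 3.23 and 4.21 CPM with mock and 45.6, 65.5 and 72.1 CPM with ABA. Every ABA library stood above every mock library in both organs, with log2 fold changes of 5.18 ± 0.34 (SE, n = 3 per group, adjusted p 2.7e-11) in roots and 4.21 ± 0.33 (adjusted p 1.3e-09) in shoots. ERD10, an acidic dehydrin with chaperone activity in vitro, read 2401, 3008 and 2772 CPM in mock roots and 4773, 5552 and 7272 CPM in ABA roots. In shoots ERD10 read 1343, 997 and 783 CPM with mock and 2947, 3680 and 3576 CPM with ABA. The groups did not overlap in either organ, although the change was far smaller than that of RAB18, at 1.10 ± 0.20 (adjusted p 0.0003) in roots and 1.71 ± 0.21 (adjusted p 1.9e-06) in shoots.

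The other abundant dehydrins had smaller log2 fold changes than RAB18. COR47 was called in roots (0.71 ± 0.18, adjusted p 0.0081) and in shoots (1.02 ± 0.19, adjusted p 0.00044), and the root call was lost without replicate 3 of the ABA roots (0.58) or replicate 1 of the mock roots (0.61). ERD14 had a log2 fold change of 0.99 ± 0.18 in shoots (adjusted p 0.00048) and 0.49 ± 0.18 in roots (adjusted p 0.064), and LTI30 of 1.27 ± 0.24 in shoots (adjusted p 0.0007) and 0.57 ± 0.24 in roots (adjusted p 0.11). For neither gene was the difference between the organs called. AT1G54410, a small histidine-rich dehydrin known as HIRD11, was not called, with -0.55 in roots (95% interval -1.02 to -0.08) and 0.51 in shoots (0.04 to 0.98). XERO1, a basic dehydrin next to LTI30, rose from low levels by 2.39 ± 0.39 in roots and 2.82 ± 0.41 in shoots. Of the members under 5 CPM, AT2G21490 (4.53 ± 1.17, adjusted p 0.0084) and AT4G39130 (3.08 ± 1.02, adjusted p 0.039) were called in roots alone. The 7 counts of AT2G21490 in mock roots were all in replicate 2, and its call was lost without replicate 1 of the mock roots (adjusted p 0.061). The AT4G39130 call was lost in 9 of 14 alternative analyses.

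Both RD29 genes, stress reporters that lie 1319 bases apart on chromosome 5 with 80.4% identical aligned exon bases, rose in both organs, and from very unequal levels. LTI78 (RD29A) read 890, 1176 and 1204 CPM in mock roots and 2153, 3582 and 4328 CPM in ABA roots, a log2 fold change of 1.62 ± 0.25 (adjusted p 3.2e-05). In shoots LTI78 read 788, 781 and 487 CPM with mock and 2714, 3874 and 3184 CPM with ABA (2.25 ± 0.25, adjusted p 6.4e-07). LTI65 (RD29B) read 5.77, 7.90 and 11.1 CPM in mock roots and 102, 164 and 260 CPM in ABA roots (4.41 ± 0.35, adjusted p 9.3e-10). The groups were separate for both genes, and the mock levels of LTI65 were far below those of LTI78. In shoots LTI65 read 6.30, 6.20 and 7.64 CPM with mock and 122, 146 and 166 CPM with ABA (4.43 ± 0.35, adjusted p 1.9e-09). Per length, mean LTI78 was 113 times mean LTI65 in mock roots and 16.3 times in ABA roots, and 87.2 and 19.2 times in shoots.

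COR15A and COR15B encode small proteins of the chloroplast stroma that stabilise membranes in the cold, and lie 1086 bases apart on chromosome 2 with 82.4% identity. COR15A, whose window above holds both cores, read 0.191, 0.637 and 0.309 CPM in mock roots and 14, 30.6 and 58.8 CPM in ABA roots (6.47 ± 0.64, adjusted p 3.8e-08). In shoots it read 0.723, 2.06 and 0.732 CPM with mock and 35.7, 62.6 and 71.4 CPM with ABA (5.47 ± 0.57, adjusted p 1.6e-07). ABA libraries were far above mock libraries in both organs, and shoots were above roots with mock. COR15B read 0.120, 0.957 and 0.275 CPM in mock shoots and 6.45, 9.88 and 17.3 CPM in ABA shoots (4.47 ± 0.79, adjusted p 0.00043). In roots COR15B had 2 counts over the 3 mock libraries and 282 over the 3 ABA libraries, at 0.606, 3.09 and 7.07 CPM, a depth-scaled ratio of 107 (95% exact interval 29.3 to 885, counting error only).

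The KIN genes encode small alanine-rich hydrophilic proteins, and lie 1183 bases apart on chromosome 5. Their aligned exon bases are 82.7% identical over 473 bases, and 10 words of 50 bases are shared (2.0% of those of KIN1 and 2.3% of those of KIN2), so a small part of their counts could be split between them. KIN1 read 3.29, 7.15 and 8.76 CPM in mock roots and 132, 156 and 284 CPM in ABA roots (4.9 ± 0.54, adjusted p 2e-07). In shoots KIN1 read 8.71, 15.3 and 9.33 CPM with mock and 102, 172 and 223 CPM with ABA (3.88 ± 0.51, adjusted p 5.7e-06). KIN2 read 18.6, 49.8 and 92.0 CPM in mock roots and 396, 688 and 963 CPM in ABA roots (3.67 ± 0.57, adjusted p 3.2e-05). The ABA and mock groups were separate for both genes, with a wide spread among the mock roots of KIN2. In shoots KIN2 read 138, 434 and 348 CPM with mock and 1098, 1503 and 2047 CPM with ABA (2.34 ± 0.53, adjusted p 0.0047). With the counts of both summed, the log2 fold changes were 3.87 ± 0.56 in roots (adjusted p 1.5e-05) and 2.43 ± 0.53 in shoots (adjusted p 0.003). Per length, mean KIN2 was 9.56 times mean KIN1 in mock roots and 4.09 times in ABA roots, and 31.5 and 10.7 times in shoots.

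KIN2 and COR15A were higher in mock shoots than in mock roots, and the summed photosynthesis genes in the root libraries were 223, 303 and 3780 CPM with mock and 375, 6700 and 4010 CPM with ABA. With the levels of the other organ's markers as covariates, the root log2 fold changes were 3.24 ± 0.33 for KIN2, 4.57 ± 0.42 for KIN1, 5.83 ± 0.57 for COR15A and 5.58 ± 1.05 for COR15B, each called. That fit does not measure how much shoot RNA a root library held, and COR15B rests on 2 counts over the mock roots. Any part of shoot RNA in these root values was not tested.

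**Figure D4:**
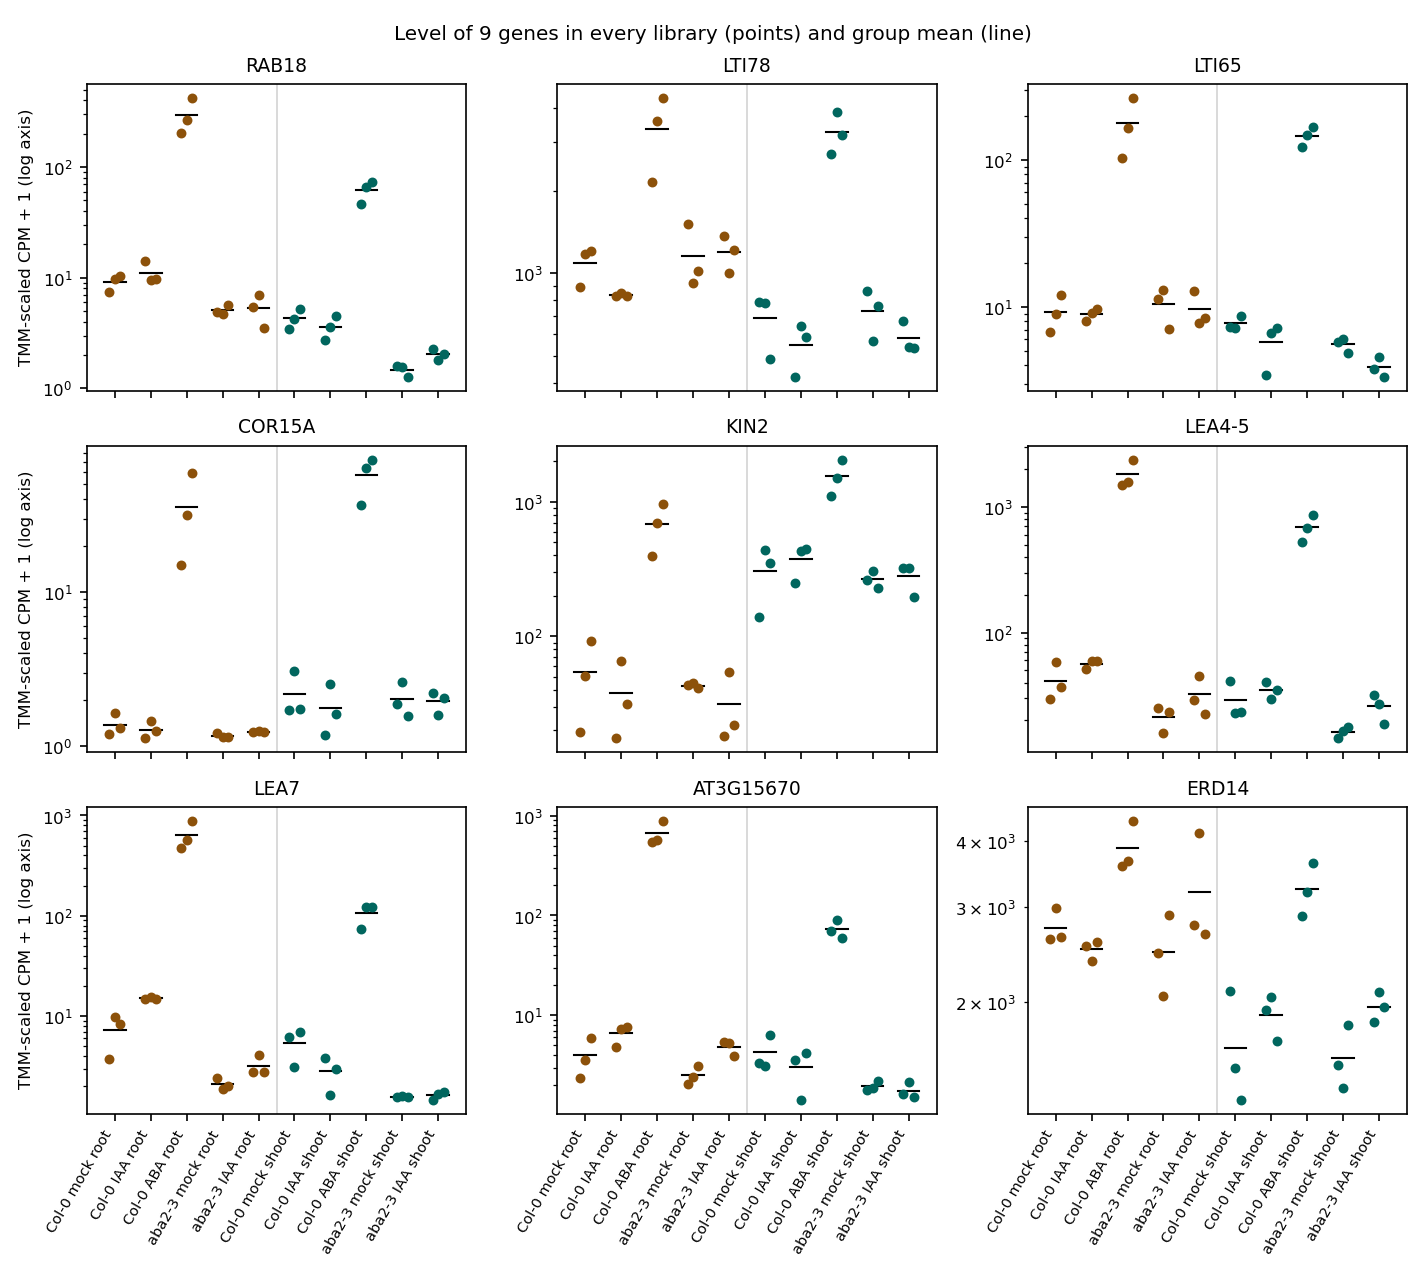
CPM + 1 on a log axis for RAB18, LTI78, LTI65, COR15A, KIN2, LEA4-5, LEA7, AT3G15670 and ERD14 in the 10 groups; points are libraries and lines are means. In Col-0, the ABA libraries stand above the mock and IAA libraries of the same organ in all 9 panels, by a shallow step for ERD14.

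The 3 LEA_1 genes (group 4 LEA proteins, which gain helical structure as water is lost) rose in both organs. LEA4-5 read 28.5, 57.2 and 35.6 CPM in mock roots and 1504, 1574 and 2371 CPM in ABA roots (5.49 ± 0.35, adjusted p 1.9e-11). In shoots LEA4-5 read 40.2, 21.8 and 22.4 CPM with mock and 527, 677 and 855 CPM with ABA (4.61 ± 0.34, adjusted p 4.5e-10). Mock levels overlapped between the organs, and ABA roots ended above ABA shoots. AtLEA4-1, whose window above holds the ACGTG core in 3 places, read 0.229, 0.599 and 0.464 CPM in mock roots and 26.6, 17.2 and 33.3 CPM in ABA roots (5.89 ± 0.58, adjusted p 3.1e-08). In shoots AtLEA4-1 read 0.482, 0.170 and 0.503 CPM with mock and 19.6, 14.1 and 12.7 CPM with ABA (5.49 ± 0.57, adjusted p 1.6e-07). It was near 0 in every mock library, and the groups did not overlap. LEA18 rose by 4.82 ± 0.46 in roots and 3.83 ± 0.43 in shoots.

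Of the 15 LEA_4 genes (LEA proteins built of a repeated short helical motif), 11 were called higher in roots and 6 in shoots, and 3 were not tested. LEA7 read 2.75, 8.91 and 7.31 CPM in mock roots and 471, 564 and 879 CPM in ABA roots (6.66 ± 0.47, adjusted p 1.4e-10). In shoots LEA7 read 5.18, 2.14 and 5.95 CPM with mock and 72.5, 120 and 122 CPM with ABA (4.60 ± 0.44, adjusted p 3.7e-08). The groups were far apart in both organs. AT3G15670, whose exon sequence is 75.6% identical to that of LEA7 over 808 aligned bases, read 1.38, 2.55 and 5.00 CPM in mock roots and 542, 570 and 881 CPM in ABA roots (7.83 ± 0.56, adjusted p 1.7e-10). In shoots AT3G15670 read 2.33, 2.08 and 5.35 CPM with mock and 69.3, 90.1 and 58.4 CPM with ABA (4.52 ± 0.49, adjusted p 3.1e-07). Its mock levels overlapped between the organs, and its ABA levels did not. AT3G02480 (4.46 ± 0.67 and 2.77 ± 0.62), AT3G17520 (5.57 ± 0.78 and 3.48 ± 0.70), AT4G36600 (5.98 ± 0.80 and 2.86 ± 0.71) and ECP63 (5.68 ± 0.96 and 5.02 ± 0.93) rose in roots and in shoots, with the shoot call of AT4G36600 lost without replicate 2 of the mock shoots (2.70, adjusted p 0.054). The 5 members called in roots alone were AT1G72100, AT2G42560, AT3G53040, AT4G21020 and AT5G44310, between 3.84 and 6.21 on the log2 scale. None of them exceeded 6 CPM in an ABA shoot library. AT2G03850 was not called with ABA in either organ.

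The LEA_5 pair, the Em proteins of dry seed, rose to low levels. GEA6 (EM6) read 0.267, 0.712 and 1.24 CPM in mock roots and 35.3, 16.1 and 42.4 CPM in ABA roots (5.43 ± 0.74, adjusted p 5.4e-06). In shoots GEA6 read 0.361, 0.702 and 2.29 CPM with mock and 4.9, 6.37 and 2.63 CPM with ABA (2.12 ± 0.65, adjusted p 0.04), a call lost without replicate 1 or 2 of either group (1.76 to 2.14). The ABA shoots stood just above the highest mock shoot, and the ABA roots far above the mock roots. EM1 rose by 5.38 ± 0.84 in roots and 3.99 ± 0.80 in shoots. Other seed products moved in the root libraries too: the summed level of 16 seed storage genes (cruciferins, 2S albumins, oleosins and the like) was 5.81 to 22.1 CPM in mock roots and 41.9 to 75.1 CPM in ABA roots, and their part in the LEA_5 result was not tested.

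The LEA_2 genes encode atypical LEA proteins that adopt a stable fold. LEA14 read 851, 1100 and 1193 CPM in mock roots and 2014, 1934 and 2892 CPM in ABA roots (1.12 ± 0.22, adjusted p 0.00052). In shoots LEA14 read 751, 550 and 484 CPM with mock and 1177, 1602 and 1518 CPM with ABA (1.27 ± 0.22, adjusted p 0.00024). It was abundant everywhere and every ABA library was above every mock library of its organ. AT2G44060 rose by 0.93 ± 0.12 in roots and 0.81 ± 0.12 in shoots, and AT2G46140 was not called, with 0.25 (95% interval -0.19 to 0.68) and 0.30 (-0.15 to 0.74).

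Of the 4 LEA_3 genes, 1 was called higher in roots and 0 in shoots. SAG21, a LEA protein of mitochondria tied to senescence and oxidative stress, read 603, 588 and 564 CPM in mock roots and 1081, 795 and 950 CPM in ABA roots (0.69 ± 0.21, adjusted p 0.027), a call lost without any 1 of the mock root libraries or replicate 1 of the ABA roots (0.60 to 0.71). In shoots SAG21 read 343, 251 and 225 CPM with mock and 487, 339 and 381 CPM with ABA (0.56 ± 0.21, adjusted p 0.1). DI21, the drought-induced gene of the same class, was not called in either organ. AT3G53770 had 16 counts over the mock shoots (0.0803, 0.117 and 0.137 CPM) and 0 over the ABA shoots, which is the one call for lower expression. The upper limit of its ABA to mock ratio was 0.535 (95% exact interval, counting error only), and the call was lost in 9 of 13 alternatives.

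Of the PvLEA18 pair, 1 gene was called in each organ. AT2G23120 read 413, 435 and 262 CPM in mock shoots and 688, 733 and 874 CPM in ABA shoots (1.05 ± 0.25, adjusted p 0.0066). In roots AT2G23120 read 785, 1111 and 933 CPM with mock and 860, 885 and 1209 CPM with ABA, overlapping groups with a log2 fold change of 0.06 (95% interval -0.42 to 0.55). Its neighbour AT2G23110 read 0.688, 1.31 and 0.773 CPM in mock roots and 4.87, 2.09 and 4.17 CPM in ABA roots (2.00 ± 0.50, adjusted p 0.0057). The AtM genes M10 and M17 were under 1 CPM in every library. Among the 6 SMP genes, RAB28 read 0.115, 0.262 and 0.103 CPM in mock roots and 2.78, 0.712 and 3.08 CPM in ABA roots (3.72 ± 0.93, adjusted p 0.0056). AT3G22490 had 1 count over the mock roots and 112 over the ABA roots, at 2.02, 0.0949 and 0.489 CPM, a ratio of 84.7 (14.9 to 3380). Most of those counts came from replicate 1 of the ABA roots, without which AT3G22490 was not called, and 25 bases of the gene overlap AT3G22480. The other 4 SMP genes were too low to test.

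Upstream windows were compared with the size of the root response, by a split chosen after the values were seen. Of the members called with a log2 fold change over 3 in ABA roots, 26 of 26 held ACGTG, against 133 of 192 other genes past the same line (69.3%) and 52.8% of all genes called higher. Of the members called at 3 or less, 4 of 8 held it (50%), and of the tested members higher in neither organ 2 of 8 did (25.0%). CCGAC was present in 17 of those 26 (65.4%), against 37 of the 192 (19.3%). Among the 13 abundant members the CCGAC share was 61.5%. The deposited start lies inside the RefSeq gene for 32 of the 53 members, by 100 bases or more for 15, and the whole window does so for COR47, COR15B, AT4G38410 and UNE15. In windows before the RefSeq start, an alternative added after the data were seen, ACGTG was present in 25 of the 26 (96.2%), in 121 of the 192 (63.0%), in 3 of the 8 called at 3 or less (37.5%) and in 5 of the 8 higher in neither organ (62.5%), so the low share in this last group did not hold. CCGAC was then present in 15 of the 26 (57.7%) and 42 of the 192 (21.9%). The shares describe this list of chosen genes and carry no test.

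Whether ABA acted more strongly in roots than in shoots was asked by the interaction of treatment and organ. In edgeR AT3G15670 was the 1 member called, with a root minus shoot difference of 3.31 ± 0.63 on the log2 scale (adjusted p 0.0056), where 1.72% of tested genes were called and 0.903% in that direction. LEA7 had a difference of 2.05 ± 0.55 (adjusted p 0.052), AT2G42560 of 5.36 ± 1.42 (adjusted p 0.051), GEA6 of 3.32 ± 0.93 (adjusted p 0.067) and AT3G53040 of 2.74 ± 0.82 (adjusted p 0.089). These calls depend on the analysis: DESeq2 called all 5, the fit with covariates for RNA of the other organ called AT3G15670, AT2G42560 and LEA7, a mean count of at least 20 added AT2G42560, and the compared groups alone added AT3G53040. Leaving out 1 library added LEA7, AT2G42560 or GEA6 in 5 of 12 cases, and a 2-fold minimum left 0 calls. In the edgeR analysis, none of the 11 members called in roots alone passed the test of the difference, and of these AT2G42560 and AT3G53040 passed it under the alternatives just named.

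Without added hormone, roots and shoots of Col-0 differed at 13 members higher in roots and 3 lower, where 49.9% of tested genes differed, 24.3% higher and 25.6% lower in roots. DI21 read 179, 150 and 119 CPM in roots and 13.5, 10.8 and 14.6 CPM in shoots (3.53 ± 0.34, adjusted p 9.8e-09). LTI30 read 1825, 2430 and 2425 CPM in roots and 492, 271 and 284 CPM in shoots (2.67 ± 0.25, adjusted p 8e-09). Neither overlapped between organs, and the other root-high members lay between 0.67 (LTI78) and 2.07 (AT2G46140). The 3 lower in roots were KIN2 (-2.52 ± 0.54, adjusted p 0.00035), COR15A (-1.72 ± 0.64, adjusted p 0.027) and COR15B. COR15B held 2 counts in roots and 99 in shoots (ratio 0.0393, 95% exact interval 0.0047 to 0.146). The COR15A call was lost without replicate 1 or 3 of the mock roots or replicate 2 of the mock shoots, where it ran from -1.61 to -0.96, and the COR15B call was lost without that shoot library.

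In aba2-3 mock seedlings 15 members were higher in roots and 5 lower, where 53.9% of tested genes differed, 26.3% higher and 27.7% lower. RAB18 differed by 3.12 ± 0.39 there, on 18, 12 and 7 counts in the aba2-3 mock shoots, beside 1.31 ± 0.31 in Col-0. Whether its organ difference depends on genotype was not tested. With ABA, 27 members were higher in Col-0 roots than in shoots and 0 lower, where 52.6% of tested genes differed and 26.5% were higher. AT3G15670 differed by 3.19 ± 0.45, DI21 by 2.81 ± 0.33, LEA7 by 2.60 ± 0.39, RAB18 by 2.27 ± 0.29 and LEA4-5 by 1.40 ± 0.29. AT3G53770 had 16 counts in ABA roots, 0 of them in replicate 3, and 0 in ABA shoots, with a lower limit of 2.75 on the root to shoot ratio (95% exact interval, counting error only).

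The mutant comparison asked what the members do when ABA synthesis is impaired, and it shares its Col-0 mock libraries with the ABA and IAA comparisons. In mock roots 4 members were lower in aba2-3 and 0 higher, where 7.19% of tested genes were called, 3.92% lower and 3.26% higher. LEA7 read 1.43, 0.902 and 1.01 CPM in aba2-3 roots, beside 2.75, 8.91 and 7.31 CPM in Col-0 (-2.51 ± 0.44, adjusted p 0.0012). LEA4-5 read 24.0, 14.8 and 22.2 CPM in aba2-3 roots, beside 28.5, 57.2 and 35.6 CPM (-0.99 ± 0.29, adjusted p 0.041). AT1G54410 read 664, 607 and 749 CPM in aba2-3 roots, beside 1136, 1271 and 1098 CPM (-0.80 ± 0.24, adjusted p 0.044). RAB18 was also lower, at 3.90, 3.68 and 4.67 CPM (-0.99 ± 0.30, adjusted p 0.047). No group of these genes overlapped, but the calls for AT1G54410 and RAB18 were lost without any 1 of the 6 libraries, and that for LEA4-5 without 4 of the 6. Of the 34 members that ABA raised in roots, 3 were called lower in aba2-3 roots (LEA7, LEA4-5 and RAB18). The other 31 were not called, among them LTI78 (0.08) and KIN2 (-0.34). A fall could hardly be called for members at few counts in Col-0 mock roots, so a missing call does not show an unchanged level. There 27 of the 53 members were under 1 CPM, and COR15B and AT3G22490 held 2 counts and 1 count over the 3 libraries.

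In mock shoots 3 members were lower in aba2-3 and 0 higher, where 2.63% of tested genes were called, 1.78% lower and 0.853% higher. RAB18 read 0.587, 0.545 and 0.264 CPM in aba2-3 shoots, beside 2.45, 3.23 and 4.21 CPM in Col-0 (-2.80 ± 0.39, adjusted p 0.00013). LEA7 read 0.555, 0.591 and 0.565 CPM, beside 5.18, 2.14 and 5.95 CPM (-2.91 ± 0.48, adjusted p 0.0011). AT2G23110 read 0.261, 0.500 and 0.414 CPM, beside 1.28, 1.87 and 1.55 CPM (-2.02 ± 0.53, adjusted p 0.039). All 3 were low in both genotypes and did not overlap, and the AT2G23110 call was lost without any 1 of the 6 libraries. The summed seed storage genes were 20.7 to 21.1 CPM in these aba2-3 shoots and 42.0 to 62.4 CPM in Col-0 mock shoots, and their part in this result was not tested.

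**Figure D5:**
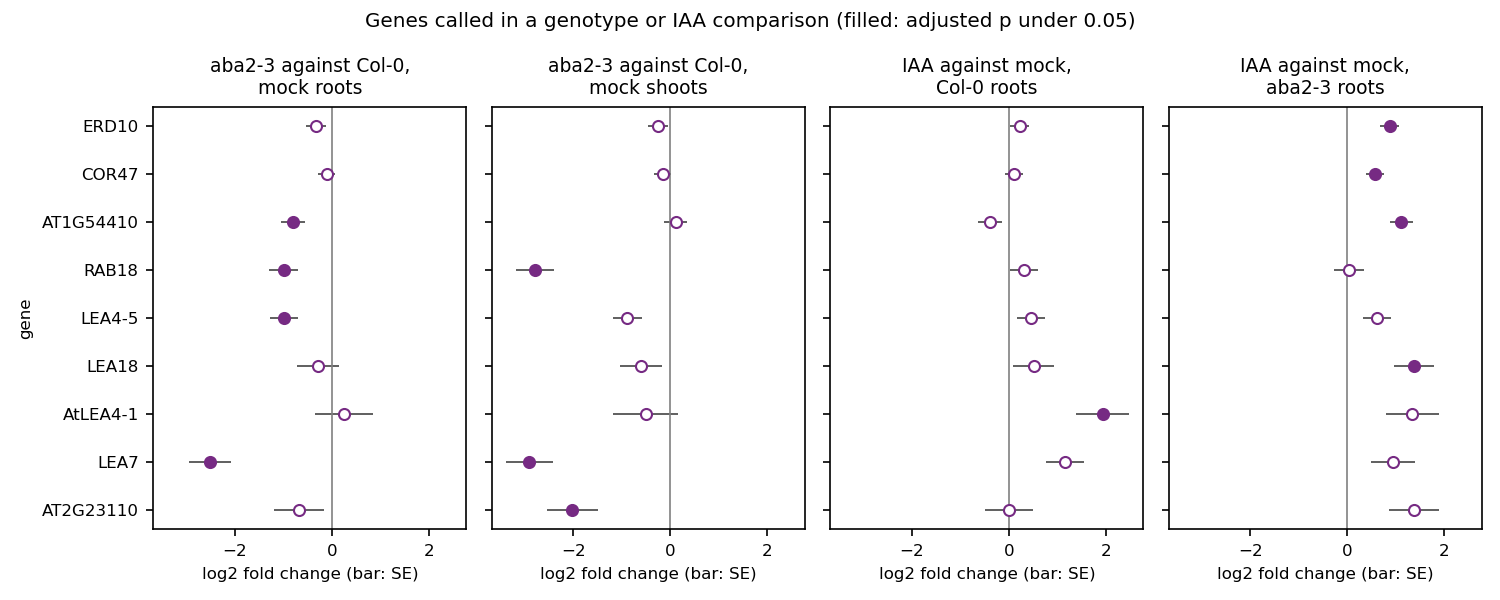
Log2 fold change with SE bars of the 9 members called in the mutant or IAA comparisons, drawn for aba2-3 against Col-0 with mock (roots, shoots) and for IAA against mock in Col-0 roots and in aba2-3 roots. RAB18 and LEA7 lie furthest below 0 in the mutant shoots, and AT1G54410 lies below 0 in mutant roots and above 0 with IAA in aba2-3 roots.

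Few members were called with IAA, and their counts lay near the shares of all tested genes given beside them. In Col-0 roots AtLEA4-1 was the one member called, where 5.57% of tested genes were called, 2.64% higher and 2.92% lower. It read 0.665, 2.59 and 1.77 CPM with IAA and 0.229, 0.599 and 0.464 CPM with mock (1.93 ± 0.55, adjusted p 0.039), a call lost in 9 of 15 alternatives, 5 of them with 1 of the 6 libraries left out. LEA7 read 13.8, 14.5 and 13.9 CPM with IAA, each above its mock libraries, without being called (1.15 ± 0.39, adjusted p 0.083). AT2G03850, a LEA_4 gene, read 3.84, 5.46 and 6.15 CPM with IAA and 0.611, 2.62 and 0.824 CPM with mock, also without overlap or a call (1.91 ± 0.88, adjusted p 0.23). In aba2-3 roots AT2G03850 read 5.46, 4.68 and 3.93 CPM with IAA and 0.738, 1.22 and 0.398 CPM with mock (2.57 ± 0.91, adjusted p 0.066). In Col-0 shoots edgeR called 0 members, where 2.22% of tested genes were called, 0.921% higher and 1.3% lower. There, 6 members had an unadjusted p under 0.05, and DESeq2 called 0. AT3G02480 and AT4G21020 were called without replicate 1 of the IAA shoots, and LEA7 without replicate 2 of the mock shoots.

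In aba2-3 roots IAA raised 4 members, where 11.8% of tested genes were called and 7.02% higher. AT1G54410 read 933, 2474 and 949 CPM with IAA and 664, 607 and 749 CPM with mock (1.11 ± 0.24, adjusted p 0.0033). ERD10 read 3591, 4729 and 3616 CPM with IAA and 2649, 1667 and 2210 CPM with mock (0.87 ± 0.20, adjusted p 0.0058). LEA18 read 4.28, 12.1 and 3.79 CPM with IAA and 2.13, 3.61 and 1.74 CPM with mock (1.37 ± 0.42, adjusted p 0.036). The IAA and mock groups did not overlap, and replicate 2 was the highest IAA library each time. COR47 was also called (0.57 ± 0.18, adjusted p 0.045). That replicate also held AT2G23120 at 2074 CPM, beside 874 and 931 CPM, and DI21 at 290 CPM, beside 92.6 and 90.9 CPM. Without it the log2 fold changes were 0.48 for AT1G54410 (adjusted p 0.056), 0.69 for LEA18 (adjusted p 0.33) and 0.46 for COR47 (adjusted p 0.18), none called, and 0.72 for ERD10 (adjusted p 0.046). Without it DI21 was called lower with IAA (-0.79, adjusted p 0.027). The ERD10 call was lost without replicate 2 of the aba2-3 mock roots (0.68, adjusted p 0.058), the LEA18 call also without replicate 1 or 3 of those roots (1.26 and 1.15), and the COR47 call without any 1 of the 6 libraries. In aba2-3 shoots edgeR called 0 members, where 1.92% of tested genes were called. There, 4 had an unadjusted p under 0.05, and DESeq2 called 0. The compared groups alone called AT2G23120 and LEA4-5.

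The response to IAA differed between genotypes at AT1G54410 in roots, where 1.32% of tested genes were called. Its aba2-3 minus Col-0 difference was 1.5 ± 0.34 (adjusted p 0.028), as Col-0 roots read 964, 834 and 876 CPM with IAA, below their mock level of 1136, 1271 and 1098 CPM. Without replicate 2 of the aba2-3 IAA roots the difference was 0.88 (adjusted p 0.033), and the call was lost without replicate 2 of the mock roots of either genotype (1.44 in Col-0 and 1.41 in aba2-3) or replicate 2 or 3 of the Col-0 IAA roots (1.46 and 1.45). In shoots edgeR called 0 members for this difference, where 0.00451% of tested genes were called. There, 2 had an unadjusted p under 0.05, and DESeq2 called 0.

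Genes of the ABF/ABI5 and CBF/DREB families were read from lists of transcription factors. Whether they act on the members here was not tested. All 5 bZIP factors of the ABF and ABI5 list were higher with ABA in roots and in shoots. Over all tested genes 8.31% were called higher in roots and 4.98% in shoots. ABF3 rose from a mean of 49.4 to 439.6 CPM in roots (3.15 ± 0.18, adjusted p 3.7e-12) and from 104 to 435 CPM in shoots (2.06 ± 0.18), ABF4 rose by 1.42 ± 0.13 and 1.34 ± 0.13, and ABF1 by 1.15 ± 0.20 and 0.74 ± 0.20. Of the CBF and DREB list, 7 genes with ICE1, an activator of CBF genes, 7 were higher in roots and 6 in shoots. DREB2A rose by 1.62 ± 0.17 and 1.30 ± 0.17, CBF1 by 2.13 ± 0.33 and 2.22 ± 0.33, and ICE1 by 2.13 ± 0.23 in roots, with -0.12 ± 0.23 in shoots. The root minus shoot difference was called for ICE1 (2.25 ± 0.32, adjusted p 0.00049) and ABF3 (1.09 ± 0.24, adjusted p 0.017). ABF3 was lower in aba2-3 mock shoots than in Col-0 (-0.93 ± 0.17, adjusted p 0.0027), where 1.78% of tested genes were lower. IAA lowered CBF1 (-1.37 ± 0.34, adjusted p 0.016) and DREB2A (-0.87 ± 0.17, adjusted p 0.0021) in Col-0 roots, where 2.92% were lower.

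Seed storage genes were read as a list of other seed products. Of its 16 genes, 15 of them tested, 3 were higher with ABA in roots and 0 in shoots. Over all tested genes 8.31% were called higher in roots and 4.98% in shoots. In shoots 2 of the listed genes had an unadjusted p under 0.05. OLEO2, an oil-body protein, rose from a mean of 2.08 to 12.9 CPM in roots (2.67 ± 0.65, adjusted p 0.0045) and was lower in aba2-3 mock shoots than in Col-0 (-2.64 ± 0.67, adjusted p 0.034). OLEO3, the most abundant of the list, stood at 29.9 CPM in mock shoots and was not called with ABA. Of 6 seed regulators, among them ABI3 and FUS3, 3 were tested and 0 were called with ABA in either organ, with 1 unadjusted p under 0.05 in roots.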

How the data were processed

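The 30 libraries fall into 10 groups of 3. RNA came from an RNeasy Plant Mini Kit preparation and cDNA from a SMARTer kit, per the labels' protocols. The submitters' processing notes name STAR, Subread, featureCounts, edgeR, limma and TAIR10, with no version or setting, and whether counting used strand is not given in the sources used here. Each file deposited by the authors gives each gene's count with its CPM and RPKM. Recomputed from the deposited counts, CPM is the count per M (mega) counts of the library and RPKM is that CPM per kilobase of exon, in 30 of 30 files. No step beyond these is recorded.

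Counts were tested with the two-sided quasi-likelihood test of edgeR 4.0.16 (in R 4.3.3, limma 3.58.1) with TMM scaling, the default filterByExpr filter (22156 genes) and 1 mean per group over all 30 libraries. Calls are at a Benjamini-Hochberg adjusted p under 0.05 within each of 14 comparisons. SE was derived by dividing the size of a log2 fold change by the root of its F statistic. CPM and RPKM values in the text and figures use TMM-scaled library sizes, so they differ from the deposited CPM and RPKM. Intervals on ratios of counts are exact, at 95%, and cover counting error only. The scripts were tested on simulated data. Libraries of a group differed beyond sampling noise in all 30 within-group pairs (chi-square per degree of freedom 6.65 to 192.13). Positions are as deposited and overlay TAIR10.1: 97.7% of 120956 introns end in GT and AG there.

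The members and all lists were chosen with earlier results of these data known. Values per library are given, within each class, for the member with the highest mean CPM and the one with the largest called ABA change, for the adjacent pairs, and for up to 3 members called in each IAA, mutant and interaction comparison. ERD14, LTI30, DI21 and other members are named beside them as members of the list. Symbols are those of the files and of RefSeq. Alternatives were RLE scaling, other filters, a 2-fold minimum, covariates for RNA of the other organ, the compared groups alone, KIN1 and KIN2 summed, a replicate block, each library left out, and DESeq2 1.42.0, with windows before the RefSeq start added after the data were seen.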

Additional observations from a re-analysis of the deposited data

Results flagged for a closer look

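AT3G15670, a LEA_4 gene, rose more with ABA in roots than in shoots of Col-0, and the difference between the organs itself passed the test: 3.31 ± 0.63 on the log2 scale (edgeR, adjusted p 0.0056). The difference was in the same direction as that of LEA7 (2.05 ± 0.55, adjusted p 0.052).

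AT1G54410, the dehydrin HIRD11, responded to IAA differently in the genotypes: the aba2-3 minus Col-0 difference in roots was 1.5 ± 0.34 (edgeR, adjusted p 0.028), and 0.88 (adjusted p 0.033) without replicate 2 of the aba2-3 IAA roots. The call was lost in 6 of 21 alternatives, among them 4 of the 12 with 1 library left out.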

How the results depend on the processing

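Of 138 calls of single members over the 14 comparisons, 71 were kept under every alternative and 67 were lost under at least 1, and 0 changed sign. Numbers of members called moved by over 1.5 times as follows. With a 2-fold minimum they were 16 for ABA in shoots, 0 for the root minus shoot difference in ABA response, 0 for aba2-3 in roots and 1 in shoots, 0 for IAA in Col-0 roots, 0 for IAA in aba2-3 roots, 0 for the genotype difference in IAA response in roots, and 7, 10 and 14 for root against shoot in Col-0 mock, aba2-3 mock and Col-0 ABA. RLE scaling gave 1 for aba2-3 in roots, and no filter gave 0 for IAA in Col-0 roots. The ABA difference between organs gave 2 with a mean count of at least 20, 3 with covariates, 2 with the compared groups alone and 5 with DESeq2. IAA in Col-0 roots gave 2 with covariates, with the compared groups alone and with DESeq2, and IAA in aba2-3 roots gave 8, 2 and 8. The compared groups alone gave 2 for IAA in aba2-3 shoots and 0 for the genotype difference in roots, and DESeq2 gave 5 for aba2-3 in shoots. Causes were not tested. Leaving out 1 library gave 30 to 33 for ABA in roots, 24 to 27 in shoots, 1 to 3 for their difference, 1 to 3 and 2 to 2 for aba2-3 in roots and shoots, 0 to 1 and 0 to 2 for IAA in Col-0 roots and shoots, 2 to 4 for IAA in aba2-3 roots, 0 to 1 for the genotype difference in roots, and 14 to 18, 18 to 22 and 21 to 25 for root against shoot in Col-0 mock, aba2-3 mock and Col-0 ABA.

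Whether replicate numbers pair the samples was not settled, as no test of pairing was run. Correlations of same-numbered libraries, after group means were removed, ran from -0.47 to 0.51, and 14 of 30 libraries correlated best with their own number. With a replicate block 33 members were called for ABA in roots, 27 in shoots, and 0 for IAA in Col-0 roots. Over all genes, ABA calls in shoots were 1103 higher and 1034 lower, and 909 and 300 with the compared groups alone, where IAA calls in Col-0 shoots went from 204 and 287 to 177 and 18. Members at few counts, AT3G22490, COR15B in roots and AT3G53770, are limited by depth.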
